A study of Mus musculus with 30 samples.

Results

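The respiratory chain genes described here are 97 protein-coding genes among the 46603 genes of the deposited count table. They were picked by a rule on gene names, set with earlier results of these data known. Of these, 84 are nuclear genes named for the 5 complexes (37 of complex I, 4 of complex II, 8 of complex III, 18 of complex IV and 17 of complex V) and 13 lie on mitochondrial DNA (7 of complex I, 1 of complex III, 3 of complex IV and 2 of complex V). Complexes were assigned by gene name throughout, so Ndufa4, known as a complex IV subunit, counts with complex I. Atp5sl, listed by RefSeq as a complex I assembly factor, counts with complex V. RNA was sequenced in bulk from tumour-associated macrophages sorted out of 3LL-R tumours, a Lewis lung carcinoma line grown under the skin of WT C57BL/6 mice. Sorting by surface MHC class II, the molecules that present antigen to helper T cells, gave MHC-IIlo and MHC-IIhi macrophages. Each subset gave 5 libraries of 250000 cells cultured for 24 h with 20 mM sodium L-lactate (lactate), 5 of 250000 cells cultured for 24 h without it (no-lactate) and 5 of 30000 cells sorted straight into lysis buffer (fresh). The labels call the 5 libraries of a group biological replicates and do not say which came from separate mice, so p-values here measure the spread between these libraries.

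The respiratory chain sits in the inner mitochondrial membrane. Complex I and complex II pass electrons from NADH and succinate to ubiquinone, complex III hands them to cytochrome c and complex IV to oxygen, and complex V, the ATP synthase, uses the proton gradient that this builds. Mitochondrial DNA codes for core membrane subunits of every complex except complex II, is read as long transcripts that are cut into single messages, and depends on nuclear genes for all its upkeep; in macrophages, inflammatory activation is known to lower respiration, in part through nitric oxide.

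Of the 13 mitochondrial genes, 7 had enough reads to be tested. mt-Co2, mt-Co3, mt-Atp6, mt-Atp8 and mt-Nd4l had 0 reads in all 30 libraries, and mt-Nd3 had 1. A block of chromosome 1 (GRCm38, chr1:24611535-24616197, minus strand) holds annotated copies of much of this stretch of mitochondrial DNA, and the sequences below show how alike the pairs are. The copy Gm28661 was the same as mt-Co2 at 681 of 681 aligned bases, Gm10925 as mt-Atp6 at 678 of 678, Gm28437 as mt-Co3 at 783 of 783 and Gm10222 as mt-Nd4l at 294 of 294. Gm28438 differed from mt-Nd3 at 1 of 345 bases, the substitution T3C counted from the first base of mt-Nd3, shown as a capital. The lines are 80 bases of the GENCODE M21 transcripts, positions 61 to 140 for the first pair and 1 to 80 for the second.
mt-Co2: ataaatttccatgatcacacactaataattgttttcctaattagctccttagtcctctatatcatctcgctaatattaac
Gm28661: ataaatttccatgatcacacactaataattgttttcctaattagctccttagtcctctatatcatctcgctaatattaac
mt-Nd3: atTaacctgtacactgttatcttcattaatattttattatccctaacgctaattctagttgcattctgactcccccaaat
Gm28438: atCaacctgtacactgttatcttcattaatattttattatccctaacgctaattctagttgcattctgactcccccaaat
mt-Atp8 has no annotated copy gene. The copies held 0 to 14 reads over all libraries. How the counting treated reads that match more than 1 place is not given in the sources used here, so these 6 genes are given no level. Copies also cover 63.6% of mt-Nd4 (Gm28439, the same at 876 of 876 bases) and 31.3% of mt-Co1 (Gm29216, the same at 482 of 483 bases, A1066T). Of all 50-base words, 51.1% of those of mt-Co1 were found in 3 pseudogenes, 62.2% of those of mt-Nd4, 8.19% of those of mt-Nd2 and 7.61% of those of mt-Nd5. mt-Co1 had 1709362 reads and mt-Nd4 265474, and their counts, and with them the levels per length and the ratios to mt-Co1 given below, may miss part of the gene. No 50-base word of mt-Nd1, mt-Cytb or mt-Nd6 was found in another annotated gene.

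Nuclear subunit genes are read from their own promoters, known for sites of NRF1 and of ETS factors such as GABPA. In the RefSeq table (GRCm38.p6), 69 of the 84 nuclear genes had a promoter of 250 bases. The NRF1 motif, searched on both strands as GCGC and TGCGC with any 1 base between them, was in 13 of them (18.8%) against 4.2% of 27025 genes. The ETS letters CCGGAAG were in 12 (17.4%) against 7.8%. The YY1 letters AAGATGG were in 2 (2.9%) against 5.2%, and the hypoxia element ACGTG in 16 (23.2%) against 18.5%. A pair of genes, chosen after their values were seen, that moved in opposite ways in no-lactate against fresh MHC-IIlo cells is shown: Sdha (chr13:74350241-74350490, minus strand), with 3 NRF1 matches and 1 ACGTG in capitals, the NRF1 letters read on the opposite strand, and Ndufa6 (chr15:82354292-82354541, minus strand), where none of the 4 motifs was found.
Sdha promoter: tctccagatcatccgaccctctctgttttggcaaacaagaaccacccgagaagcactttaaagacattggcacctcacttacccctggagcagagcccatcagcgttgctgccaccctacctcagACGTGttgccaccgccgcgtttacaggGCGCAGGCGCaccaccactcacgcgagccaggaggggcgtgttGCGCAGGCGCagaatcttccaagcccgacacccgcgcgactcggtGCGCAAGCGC
Ndufa6 promoter: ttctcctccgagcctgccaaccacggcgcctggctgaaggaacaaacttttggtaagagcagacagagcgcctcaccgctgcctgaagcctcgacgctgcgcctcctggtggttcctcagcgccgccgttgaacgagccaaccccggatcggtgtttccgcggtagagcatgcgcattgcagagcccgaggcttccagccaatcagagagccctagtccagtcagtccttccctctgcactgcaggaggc
No motif contains another. A match is a run of letters and not a measured site.

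Libraries held 16913250 to 31481548 reads in genes. All 6 macrophage markers averaged at least 1 CPM (read counts scaled by library size and TMM factors) in every group, and their summed level ran from 2478 to 10520 CPM. Dendritic cell markers moved with MHC class II: the sum of 5 (Flt3, Zbtb46, Cd209a, Batf3 and Xcr1) was 0.7103 to 1.04 CPM in lactate MHC-IIlo and 18.3 to 53.1 CPM in lactate MHC-IIhi. It was 0.376 to 1.21 CPM in no-lactate MHC-IIlo and 20.9 to 61.1 CPM in no-lactate MHC-IIhi. Fresh MHC-IIlo had 2.17 to 2.97 CPM, with Xcr1 at 0, and fresh MHC-IIhi had 13.02 to 32.1 CPM. The sum of 4 epithelial or tumour markers was 138 to 281 CPM in fresh MHC-IIlo, with Epcam and Krt18 at 0, and 507 to 580 CPM in fresh MHC-IIhi, against 34.2 to 84.2 CPM in cultured cells. That of 5 neutrophil markers was 407 to 1626 CPM in lactate MHC-IIlo and 1575 to 2294 CPM in lactate MHC-IIhi. Without lactate it was 735 to 1038 CPM in no-lactate MHC-IIlo and 699 to 1045 CPM in no-lactate MHC-IIhi. Fresh cells had 395 to 686 CPM in MHC-IIlo and 163 to 286 CPM in MHC-IIhi, with no overlap. Lymphocyte markers were lower in MHC-IIlo without overlap in each condition. In fresh cells the sum of 4 B cell markers was 0.106 to 2.1 CPM in MHC-IIlo and 8.69 to 17.4 CPM in MHC-IIhi. That of 5 T and NK cell markers was 0.888 to 4.15 CPM in MHC-IIlo and 7.99 to 11.6 CPM in MHC-IIhi. The highest value of either sum in a cultured library was 14.5 CPM. The sum of 3 endothelial markers was 87.8 to 647 CPM in cultured and 91.8 to 129 CPM in fresh cells, and that of 5 fibroblast markers overlapped between the subsets in each condition. The part of other cell types in the results was not tested. Lactate MHC-IIlo 5 stood apart from its group, with a macrophage marker sum of 2478 CPM against 5016 to 6100 CPM in the other 4, so the counts of called members and the called differences of single members that use it are also given without it. In bulk RNA, fewer cells of a type and less RNA per cell cannot be told apart.

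Per gene length, a mitochondrial message stood highest. On the TPM scale, mt-Co1, the catalytic subunit of complex IV, ranked first in all 6 groups among the members given a level, which leaves out 6 mitochondrial genes. It stood at 2783 ± 829 and 4630 ± 637 TPM in lactate MHC-IIlo and MHC-IIhi, 2102 ± 398 and 3551 ± 352 TPM in no-lactate MHC-IIlo and MHC-IIhi, and 7540 ± 889 and 8151 ± 1821 TPM in fresh MHC-IIlo and MHC-IIhi (mean ± SD, n = 5). The highest nuclear gene was Cox8a in both fresh groups, a small complex IV subunit, at 636 ± 16.4 TPM in MHC-IIlo and 742 ± 79.3 TPM in MHC-IIhi. In the no-lactate groups it was Atp5b, the catalytic beta subunit of the ATP synthase, at 526 ± 43.8 TPM in MHC-IIlo and 603 ± 89.1 TPM in MHC-IIhi, levels close to those of Cox6b1 and Cox8a within their spread in MHC-IIlo. Over the nuclear members of a complex, the median level in no-lactate MHC-IIlo was 70.6 TPM for complex I, 149.9 for II, 111 for III, 72.6 for IV and 89.6 for V. In fresh MHC-IIlo the medians were 81.9, 128, 149.7, 99.96 and 113 TPM in the same order. The median of complex II was thus higher, and those of the other complexes lower, in no-lactate than in fresh MHC-IIlo cells. Gene by gene, edgeR called 1 of the 4 complex II genes higher and 2 lower there, with a median log2 fold change of -0.07. In MHC-IIhi the complex II median was lower in no-lactate (123 TPM) than in fresh cells (139.9 TPM).

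The mitochondrial shares and ratios here rest on the tested mitochondrial genes, since those given no level had almost no reads. The share of all reads that fell on mitochondrial messages separated fresh from cultured cells and, without lactate, MHC-IIlo from MHC-IIhi cells. It was 0.239, 0.162, 0.266, 0.286 and 0.210% in the no-lactate MHC-IIlo libraries and 0.381, 0.394, 0.512, 0.394 and 0.412% in the no-lactate MHC-IIhi libraries, with no overlap. With lactate it was 0.323, 0.203, 0.336, 0.500 and 0.232% in MHC-IIlo and 0.505, 0.531, 0.600, 0.633 and 0.466% in MHC-IIhi, where only the value of lactate MHC-IIlo 5 overlapped the MHC-IIhi range. In fresh cells it was 0.746, 0.979, 0.916, 0.956 and 0.911% in MHC-IIlo and 0.795, 0.919, 0.792, 0.947 and 1.25% in MHC-IIhi, overlapping ranges that lie above every cultured library. Nuclear members took 0.532 to 0.573% of reads in no-lactate MHC-IIlo and 0.530 to 0.603% in no-lactate MHC-IIhi, which overlapped, against 0.629 to 0.731% in fresh MHC-IIlo and 0.711 to 0.826% in fresh MHC-IIhi. The ratio of mitochondrial to nuclear reads averaged 0.522 ± 0.169 in lactate MHC-IIlo (0.754 in lactate MHC-IIlo 5 and 0.328 to 0.573 in the others), 0.997 ± 0.157 in lactate MHC-IIhi, 0.419 ± 0.0840 in no-lactate MHC-IIlo, 0.732 ± 0.0838 in no-lactate MHC-IIhi, 1.33 ± 0.158 in fresh MHC-IIlo and 1.25 ± 0.301 in fresh MHC-IIhi.

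**Figure D1:**
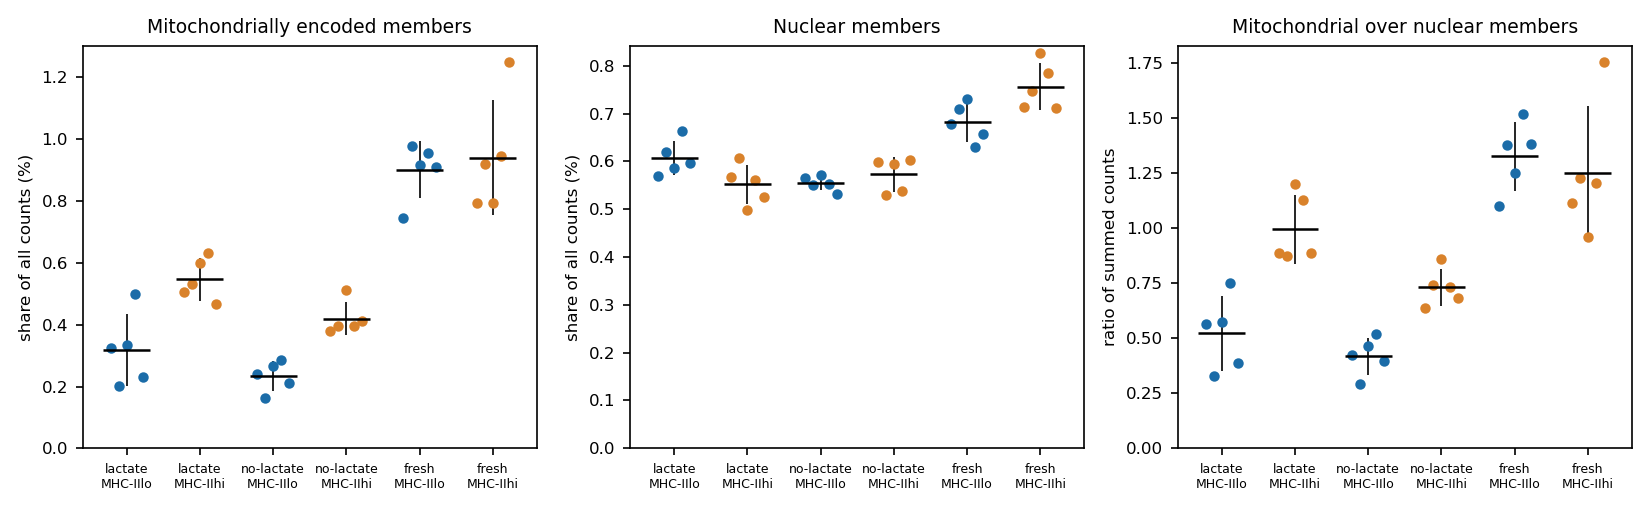
Share of reads per library (percent of reads in genes, vertical axis) on the mitochondrial and the nuclear respiratory chain genes, and the ratio of their reads, in the 6 groups, each point a library, bars the mean and vertical lines the SD. The mitochondrial share of fresh libraries lies above that of every cultured library, and in no-lactate cells MHC-IIlo lies below MHC-IIhi without overlap.

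Straight from the tumour, no mitochondrial gene passed the test between the subsets, and the members lower in MHC-IIlo made up about the same share as among all genes. Of 86 members tested with the edgeR quasi-likelihood test (Benjamini-Hochberg adjustment over all genes), 17 passed at an adjusted p under 0.05, a smaller share than the 29.2% of all 12787 genes. In MHC-IIlo 3 were higher (14% of all genes) and 14 lower (15.2%). Of all members, 1 lay higher without overlap between the groups (9.42% of all genes) and 12 lower (11.9%). None of the 7 mitochondrial genes passed, and their median log2 fold change was -0.06 (nuclear members -0.10, all genes near 0). The 14 lower members were 6 of 37 nuclear members of complex I, 1 of 4 of complex II, 2 of 8 of III, 2 of 14 tested of IV and 3 of 16 tested of V. Ndufa6 (ENSMUSG00000022450, chromosome 15, 82350139 to 82354291), an accessory subunit of the complex I matrix arm, had 50.5, 58.3, 53.4, 62.2 and 59.2 CPM in fresh MHC-IIlo and 86.9, 96.3, 83.9, 106 and 85.5 CPM in fresh MHC-IIhi, so every MHC-IIlo library lay below every MHC-IIhi library (log2 fold change -0.69 ± 0.08, adjusted p = 3.5e-05). Also lower were Ndufv1, the NADH-binding flavoprotein of complex I (-0.50 ± 0.07, adjusted p = 0.00013), and Cox7a2l, counted with complex IV (-0.38 ± 0.07, adjusted p = 0.00119). Atp5sl was lower too (-0.41, adjusted p = 0.0111), a call lost in 1 of 10 fits with 1 library left out. Uqcrc1 (-0.34 ± 0.07) and Uqcrfs1 (-0.31 ± 0.07), a core protein and the Rieske iron-sulphur protein of complex III, were lower as well, as was Sdhb (-0.23 ± 0.06), the iron-sulphur subunit of complex II. The Sdhb call was lost in the fit of all 30 libraries (adjusted p = 0.143) and in all 3 limma fits on FPKM (log2 fold change -0.10, adjusted p = 0.195 at both pseudocounts). The call of Cox7a2l was lost in the fit of all 30 libraries (adjusted p = 0.0525). The count of 17 was 11 without fresh MHC-IIhi 4 and also 11 in 1 fit of all 30 libraries. With the number in the column name added as a block, the count was larger than 17, as given with the other settings below. The 3 higher genes were Ndufa5 (0.34 ± 0.12), Ndufa4 and Ndufa4l2, the last 2 described below. The call of Ndufa5 (adjusted p = 0.0459) was lost in 7 of 10 fits with 1 library left out, with no filter on low counts (0.0645) and in the fit of all 30 libraries (0.0923).

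After 24 h in culture without lactate, 6 of the 9 members that differed between the subsets were mitochondrial. Of 85 members tested 9 passed, a smaller share than the 20.8% of all 13593 genes. In MHC-IIlo 2 were higher (9.20%) and 7 lower (11.6%). Of the 7 tested mitochondrial genes 6 were lower, all except mt-Nd6, with a median log2 fold change of -0.72 over the 7, against 0.03 for the nuclear members and -0.01 for all genes. Without overlap, 2 members were higher (8.74% of all genes) and 5 lower (10.1%), the 5 all mitochondrial. Of the 78 nuclear members tested, Ndufa4 and Sdha were higher and Ndufa4l2 was lower. The mitochondrial count rests in part on single libraries, since 3 genes in place of 6 passed without no-lactate MHC-IIhi 5 and likewise without no-lactate MHC-IIlo 3. In the deposited FPKM table, which is quantile normalised, mt-Nd1 alone of the 6 passed (limma, adjusted p = 0.001) and the median over the mitochondrial genes was -0.46.

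With lactate, called mitochondrial genes were lower and called nuclear genes, except Ndufa4l2, higher in MHC-IIlo than in MHC-IIhi. Of 85 members 16 passed, a share below the 22.4% of all genes, with 9 higher (9.13%) and 7 lower (13.3%) in MHC-IIlo. The lower ones were the same 6 mitochondrial genes and Ndufa4l2, and the 9 higher ones were all nuclear. By gene name these 9 were 5 of complex I, 1 each of complexes II and III and 2 of complex V. None of the 13 tested under complex IV names was among these 9, though Ndufa4, known as a complex IV subunit, was. At 9.13% of all genes higher, no call among 13 genes says little about complex IV. Of those with an average log2 CPM of at least 3, the largest differences were those of Ndufa4, given below, Ndufa5 (0.53 ± 0.15, 0.61 without lactate MHC-IIlo 5), Atp5g1 (0.44 ± 0.13, 0.47 without it), a gene of the proton-carrying c-ring, and Ndufs8 (0.42 ± 0.14, 0.51 without it), an iron-sulphur subunit of complex I. The call of Ndufs8 was lost in 7 of 10 fits with 1 library left out, though not without lactate MHC-IIlo 5, and with no filter on low counts (adjusted p = 0.0544). Next came Uqcr11, a small subunit of complex III (0.39, adjusted p = 0.0423), and Sdha, given below. The call of Uqcr11 was also lost in 7 of 10 such fits, though not without lactate MHC-IIlo 5, and with no filter on low counts (adjusted p = 0.0619). Of the 6 mitochondrial genes, mt-Nd1 alone passed with limma on FPKM, where the adjusted p of mt-Nd2, mt-Co1, mt-Nd4, mt-Nd5 and mt-Cytb was 0.128, 0.262, 0.134, 0.202 and 0.231. That of mt-Cytb was also above 0.05 without lactate MHC-IIlo 3 (0.0588) and without lactate MHC-IIlo 6 (0.0591). Without overlap, 2 members were higher (4.47% of all genes) and 2 lower (8.31%). The medians were -0.72 for mitochondrial members, 0.12 for nuclear members and 0.02 for all genes. Without lactate MHC-IIlo 5 the count was 25, with 18 of 79 tested nuclear genes higher and 1 nuclear and 6 of 7 mitochondrial genes lower. Of all genes 25.4% were called in that fit, 11.8% higher and 13.6% lower, so the share of members was no longer below that of all genes. Without lactate MHC-IIhi 6 the count was 11.

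**Figure D2:**
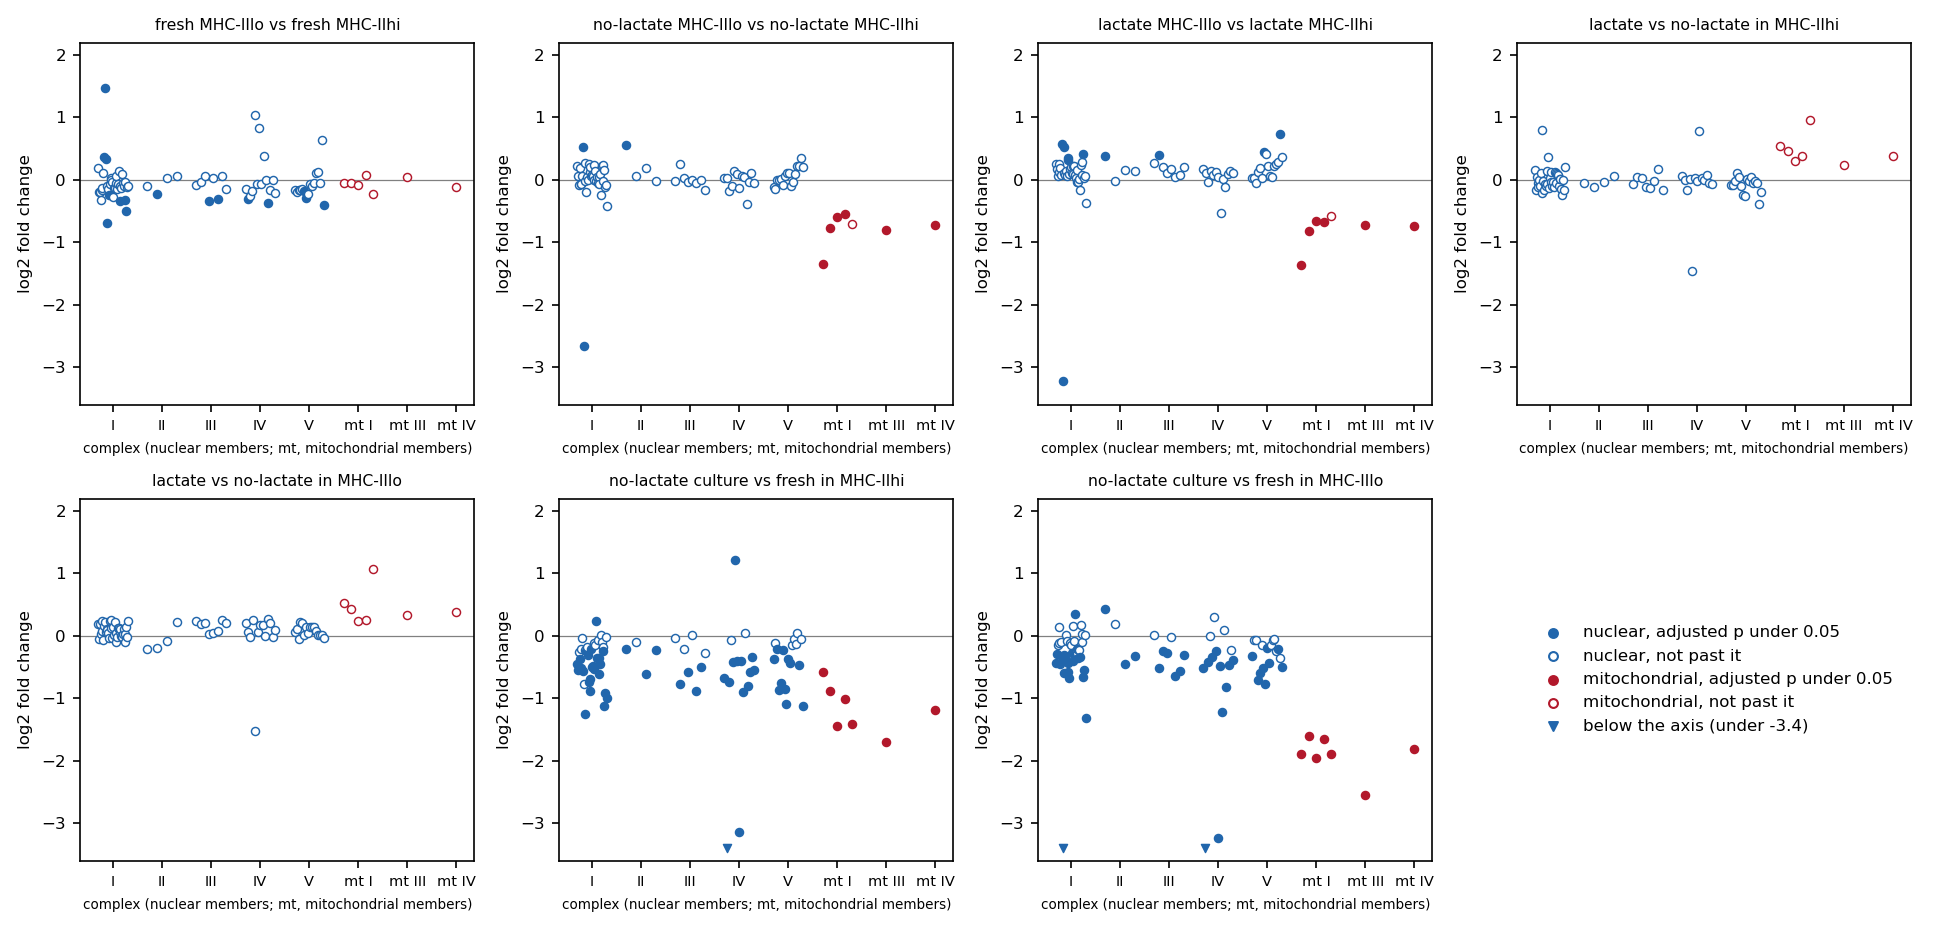
Log2 fold changes of the tested members by complex and genome in the comparisons shown, each point a gene and filled points those past an adjusted p of 0.05. Mitochondrial genes lie below 0 in cultured MHC-IIlo against MHC-IIhi cells and in cultured against fresh cells, while most nuclear genes lie near 0 in the subset comparisons. Triangles mark values below the axis.

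The mitochondrial genes were not lowered by like amounts. mt-Nd1 (ENSMUSG00000064341, mitochondrial DNA, 2751 to 3707), a core membrane subunit of complex I, had 303, 233, 368, 406 and 294 CPM in no-lactate MHC-IIlo and 873, 829, 899, 752 and 750.1 CPM in no-lactate MHC-IIhi (log2 fold change -1.35 ± 0.20, adjusted p = 3.77e-05). With lactate it had 467, 288, 428, 757 and 364 CPM in MHC-IIlo and 1247, 1039, 1278, 1318 and 1039 CPM in MHC-IIhi (-1.37 ± 0.20, adjusted p = 3.8e-05). Neither pair of groups overlapped, while in fresh cells 1034, 1253, 1176, 1300 and 1192 CPM in MHC-IIlo and 1020, 1118, 1096, 1345 and 1595 CPM in MHC-IIhi did (-0.05 ± 0.12, adjusted p = 0.809). Without lactate MHC-IIlo 5 mt-Nd1 was lower as well (-1.61 ± 0.16, adjusted p = 4.21e-07). The difference in mt-Nd1 was past the threshold in each of the alternatives tried in both cultured comparisons.

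mt-Co1 (ENSMUSG00000064351, 5328 to 6872) had 1245, 957, 1257, 1404 and 1102 CPM in no-lactate MHC-IIlo and 1888, 2068, 2105, 2027 and 1777 CPM in no-lactate MHC-IIhi (-0.72 ± 0.16, adjusted p = 0.00266). The groups did not overlap, yet on the FPKM scale the change was -0.08 and did not pass (limma, adjusted p = 0.627). mt-Cytb (ENSMUSG00000064370, 14145 to 15288), the cytochrome b of complex III, had 328, 183, 283, 318 and 226 CPM in no-lactate MHC-IIlo and 422, 412, 564, 476 and 477 CPM in no-lactate MHC-IIhi (-0.81 ± 0.22, adjusted p = 0.00959), again without overlap. The complex I genes mt-Nd2 (-0.78 ± 0.23, adjusted p = 0.019), mt-Nd4 (-0.60 ± 0.18, adjusted p = 0.0229) and mt-Nd5 (-0.55 ± 0.19, adjusted p = 0.0466) were lower as well, and the call of mt-Nd5, whose groups overlapped, was lost in 8 of 10 fits with 1 library left out, against 3 for mt-Nd4 and 2 for mt-Nd2. On the FPKM scale the adjusted p of mt-Cytb, mt-Nd2, mt-Nd4 and mt-Nd5 was 0.0711, 0.0709, 0.0778 and 0.151. mt-Nd6 (13552 to 14070), the only gene of the set on the minus strand of mitochondrial DNA and counted at about 1 CPM, had 0.665, 0.380, 0.533, 0.334 and 0.903 CPM in no-lactate MHC-IIlo and 0.357, 0.622, 0.976, 1.31 and 1.37 CPM in no-lactate MHC-IIhi, which overlapped (-0.71 ± 0.38, adjusted p = 0.211). Whether the counting used strand is not stated, so reads of mt-Nd6 and of the strand facing it may not be told apart.

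Per length and relative to mt-Co1, mt-Nd1 stood at 0.431 ± 0.0381 in no-lactate MHC-IIlo and 0.673 ± 0.0546 in no-lactate MHC-IIhi (mean ± SD, n = 5), and at 0.491 ± 0.177 in lactate MHC-IIlo and 0.753 ± 0.0929 in lactate MHC-IIhi. In fresh cells the ratio was 0.463 ± 0.0387 in MHC-IIlo and 0.448 ± 0.0464 in MHC-IIhi. The ratio of mt-Cytb to mt-Co1 was 0.300 ± 0.0370 and 0.322 ± 0.0400 in no-lactate MHC-IIlo and MHC-IIhi, against 0.512 ± 0.0293 and 0.461 ± 0.0204 in fresh MHC-IIlo and MHC-IIhi. Of these values, the mt-Nd1 ratio was higher in cultured than in fresh MHC-IIhi, and the mt-Cytb ratio lower in cultured than in fresh cells of both subsets. These ratios carry no test.

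**Figure D3:**
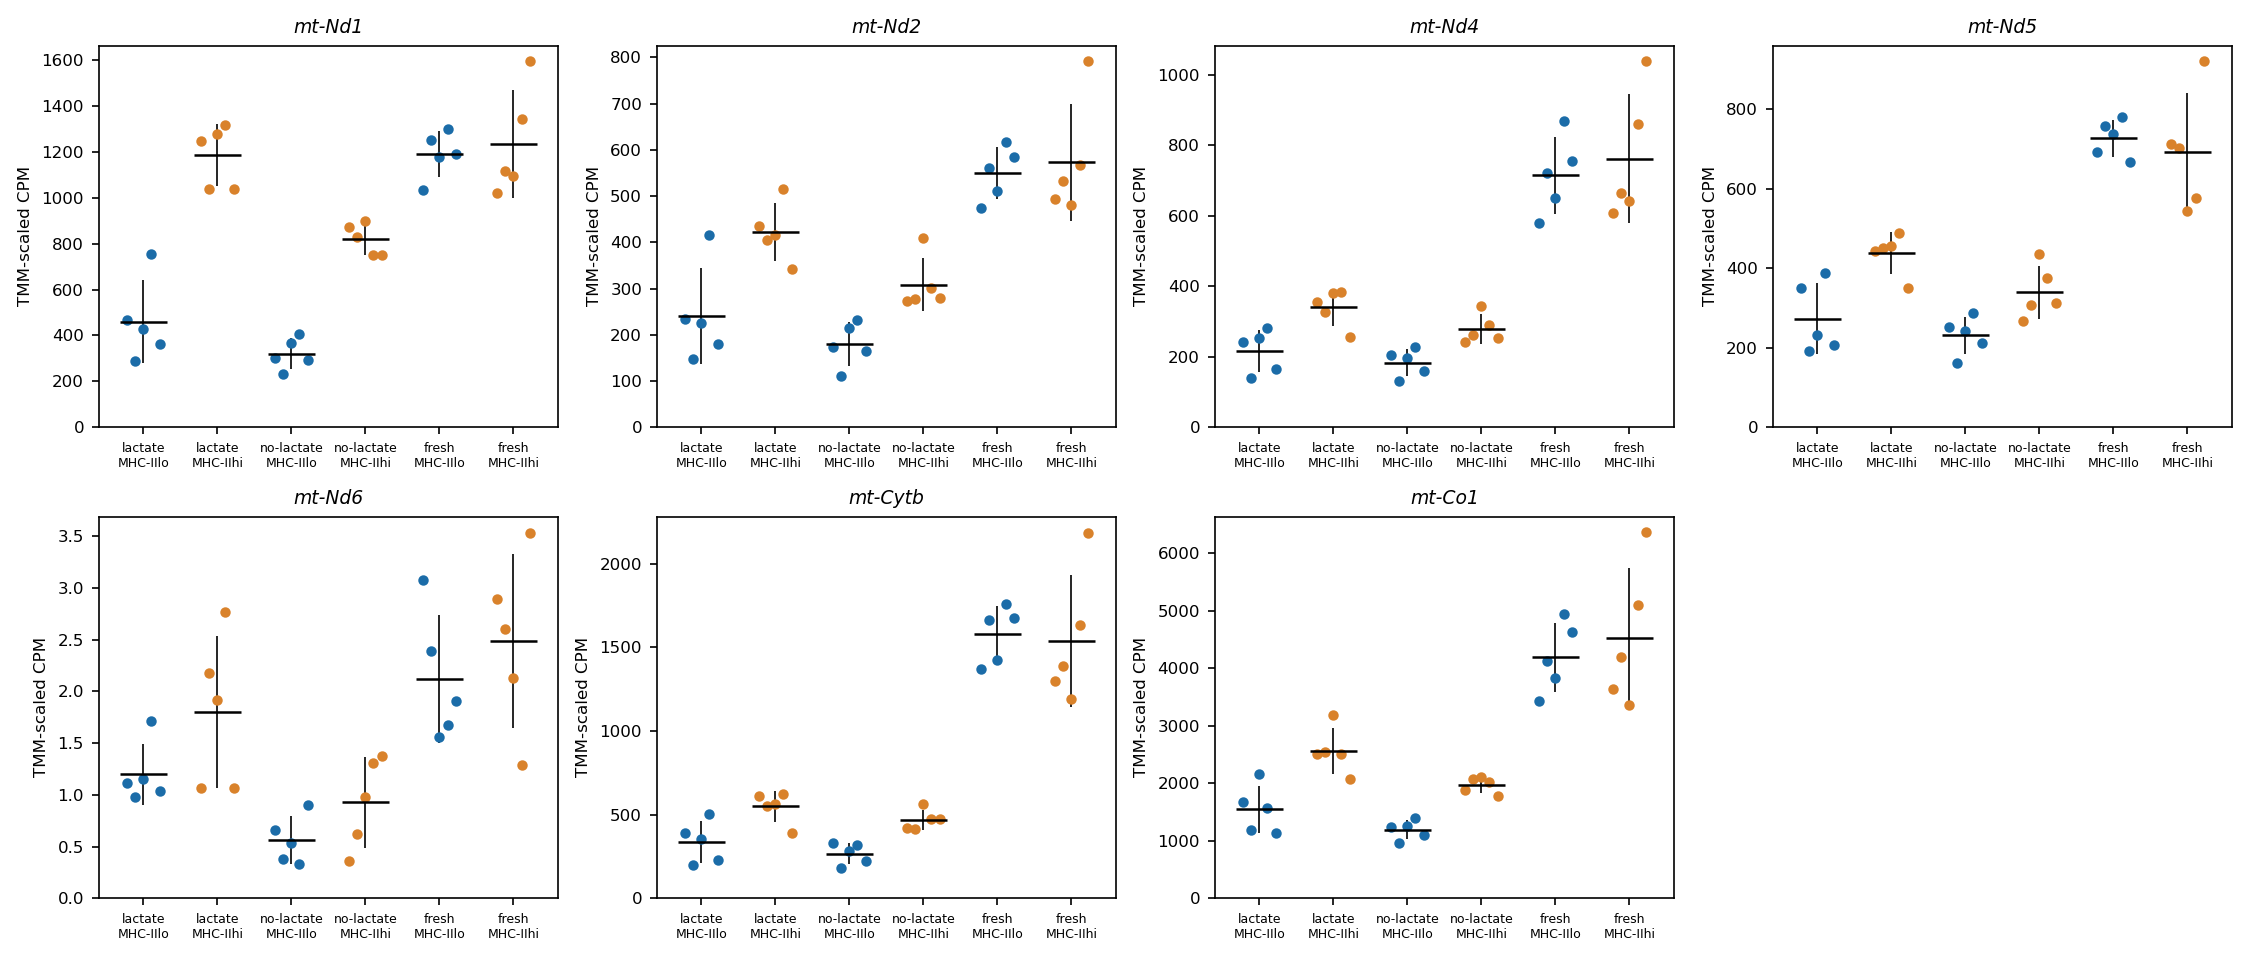
CPM of the 7 tested mitochondrial genes in each library of the 6 groups (linear axes starting at 0), bars the mean and vertical lines the SD of 5 libraries. mt-Nd1 shows the widest relative gap between cultured MHC-IIlo and MHC-IIhi cells, and all 7 genes are lower in no-lactate than in fresh cells.

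No member passed the edgeR test for lactate in either subset in the fit on group means. In MHC-IIlo 0 of 85 passed (background 1.49% of all 13593 genes, 0.905% higher and 0.581% lower), with 8 at an unadjusted p under 0.05, and in MHC-IIhi 0 of 85 passed (background 0.250%, 0.206% higher and 0.0441% lower), with 5 at an unadjusted p under 0.05. Without overlap between lactate and no-lactate cells, 3 members were higher and 0 lower in MHC-IIlo (2.88% and 2.76% of all genes), and 2 higher and 0 lower in MHC-IIhi (1.22% and 0.728%). DESeq2 called 2 in MHC-IIlo, Cox6a2 among them, and 0 in MHC-IIhi. Limma on FPKM called 2 in MHC-IIlo, Cox6a1 among them (0.32, adjusted p = 0.0226), and 0 in MHC-IIhi. In edgeR with the number in the column name added as a block (replicate block), 3 passed in MHC-IIlo and 0 in MHC-IIhi. Among the 3 were mt-Nd1 (0.49, adjusted p = 0.0474) and Cox6a2 (-1.49, adjusted p = 0.0471). The mitochondrial genes were all measured higher with lactate: mt-Nd1 by 0.52 ± 0.20 (adjusted p = 0.163) in MHC-IIlo and by 0.54 ± 0.20 (adjusted p = 0.348) in MHC-IIhi, where the 5 lactate and 5 no-lactate libraries given above did not overlap. Over the 7 genes the median was 0.38 in MHC-IIlo and 0.39 in MHC-IIhi, against 0.08 and -0.03 for nuclear members. Without lactate MHC-IIlo 5 the median in MHC-IIlo was 0.14 and mt-Nd1 was at 0.28 ± 0.15. Cox6a2, the heart and muscle form of a complex IV subunit, had the smallest adjusted p in both subsets, at 0.400, 0.203, 0.0962, 0.751 and 0.360 CPM in lactate MHC-IIlo and 1.33, 1.48, 0.723, 1.17 and 0.564 CPM in no-lactate MHC-IIlo (-1.53 ± 0.48, adjusted p = 0.0971), and at 0.295, 0.511, 0.534, 0.272 and 0.106 CPM in lactate MHC-IIhi and 1.82, 0.622, 0.976, 0.420 and 0.893 CPM in no-lactate MHC-IIhi (-1.45 ± 0.49, adjusted p = 0.307). These ranges overlap at very low levels. Fresh cells had 0.424 to 1.08 CPM of Cox6a2 in MHC-IIlo and 0.199 to 0.830 CPM in MHC-IIhi. Without lactate MHC-IIlo 5 the difference in MHC-IIlo was -1.96 ± 0.50 (adjusted p = 0.0599). The lactate effect did not differ between the subsets for any of 85 members or 13593 genes (edgeR, 3 members and 1018 genes at an unadjusted p under 0.05, and 0 members by DESeq2 or limma).

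Culture without lactate gave the most calls, and genes of both genomes fell. In MHC-IIlo 56 of 88 members passed (57.5% of all 13682 genes), 54 lower (29.9%) and 2 higher (27.6%) than in fresh cells. In MHC-IIhi 62 passed (62.0%), 60 lower (30.4%) and 2 higher (31.6%). Without overlap, 3 members were higher and 50 lower in MHC-IIlo (21.5% and 23.6% of all genes), and 0 higher and 46 lower in MHC-IIhi (21.3% and 22.9%). All 7 tested mitochondrial genes were lower in both subsets, with a median log2 fold change of -1.89 in MHC-IIlo and -1.19 in MHC-IIhi. The nuclear medians were -0.29 and -0.37, and those of all genes -0.01 and 0.01. The share of members called was thus close to that of all genes in both subsets, while the share lower was above it. Among nuclear members of complex I, 19 of 37 were lower in MHC-IIlo and 23 of 37 in MHC-IIhi. For complex II the counts were 2 and 3 of 4, for complex III 6 and 4 of 8, for complex IV 11 and 12 of 15 tested and for complex V 9 and 11 of 17. Cultured cells were 250000 lysed in the well and fresh cells 30000 sorted into buffer, so time in culture cannot be told apart from these differences.

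mt-Cytb fell furthest of the mitochondrial genes, with a log2 fold change of -2.56 ± 0.17 in MHC-IIlo (adjusted p = 5.23e-11) and -1.70 ± 0.17 in MHC-IIhi (adjusted p = 1.53e-08). Beside the no-lactate levels given above, it had 1372, 1662, 1426, 1757 and 1679 CPM in fresh MHC-IIlo and 1300, 1388, 1192, 1633 and 2183 CPM in fresh MHC-IIhi, with no overlap in either subset. mt-Nd1 had a log2 fold change of -1.89 ± 0.14 in MHC-IIlo (adjusted p = 2.53e-10) and -0.58 ± 0.14 in MHC-IIhi (adjusted p = 0.000891), the smallest fall of the 7 in MHC-IIhi. mt-Nd4, mt-Nd6, mt-Co1, mt-Nd5 and mt-Nd2 lay between -1.61 and -1.95 in MHC-IIlo and between -0.89 and -1.44 in MHC-IIhi. Of nuclear genes with an average log2 CPM of at least 3, the largest falls in MHC-IIlo were those of Ndufv3, a small flavoprotein subunit of complex I (-1.32 ± 0.14, adjusted p = 6.37e-08), Cox7a2l (-0.82 ± 0.13), Atp5g2, a c-ring gene (-0.77 ± 0.15), Atp5d, the delta subunit of the ATP synthase (-0.71 ± 0.09), Ndufs8 (-0.66 ± 0.10) and Uqcrfs1 (-0.64 ± 0.07). In MHC-IIhi they were those of Ndufa6 (-1.26 ± 0.11, adjusted p = 3.07e-09), Ndufs8 (-1.13 ± 0.10), Atp5sl, listed by RefSeq as the complex I assembly factor Dmac2 (-1.12 ± 0.12), Atp5g2 (-1.10 ± 0.15), Ndufv3 (-0.9964 ± 0.14) and Ndufv1 (-0.92 ± 0.08). Ndufb9, an accessory subunit of complex I, rose in both (0.35 ± 0.09 in MHC-IIlo, 0.24 ± 0.09 in MHC-IIhi, a call lost in 3 of 10 fits with 1 library left out). Cox6a2, at very low levels, also rose in MHC-IIhi (1.21, adjusted p = 0.0243), a call lost in 4 of 10 such fits. Of the 50-base words of Atp5g2, 38.35% occur in other annotated genes, 24.2% in the pseudogene Gm10231, so its count is uncertain.

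The change in culture itself differed between the subsets for 12 of 88 members (interaction in edgeR, a share close to the 14.3% of all 13682 genes). Here 4 fell further in MHC-IIlo (8.27% of all genes lower) and 8 fell less, or rose, in MHC-IIlo (6.03% higher). The 4 were Ndufa4l2, mt-Nd1 (-1.30 ± 0.19, adjusted p = 0.000106), mt-Cytb (-0.85 ± 0.23, adjusted p = 0.0162) and mt-Nd2 (-0.72 ± 0.24, adjusted p = 0.0482). Among the 8 were Ndufa6, Sdha, Atp5sl (0.61 ± 0.17), Ndufa12 (0.50 ± 0.15), Ndufs8 (0.47 ± 0.14), Ndufv1 (0.38 ± 0.12) and Cox5a (0.33 ± 0.11). The count was 6 in a fit of all 30 libraries and 15 in DESeq2, and 7 without any 1 of fresh MHC-IIhi 3, fresh MHC-IIlo 2, fresh MHC-IIlo 4, no-lactate MHC-IIhi 4 or no-lactate MHC-IIlo 1. With 1 library left out, the adjusted p was above 0.05 in 16 of 20 fits for mt-Nd2, 8 for Ndufv1, 5 for Ndufs8, 2 for Ndufa12 and 0 for mt-Cytb. In the fit of all 30 libraries it was 0.124 for mt-Nd2, 0.0583 for mt-Cytb, 0.112 for Ndufs8 and 0.101 for Ndufv1. With limma on FPKM mt-Cytb was at -0.59 (adjusted p = 0.0759). The median was -0.63 over the 7 mitochondrial genes, 0.11 over the nuclear members and -0.02 over all genes. This comparison shares its libraries with the comparisons above.

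**Figure D4:**
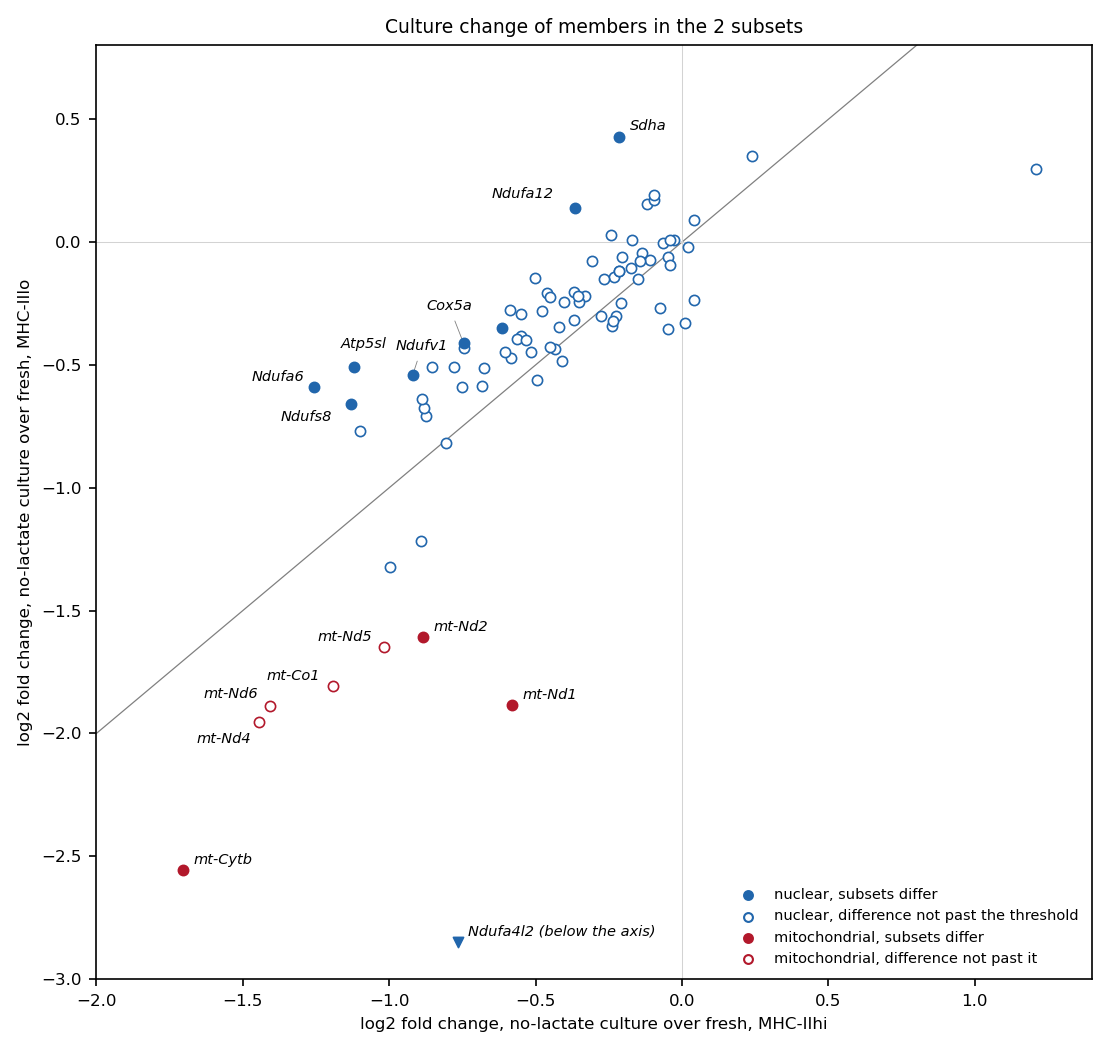
Log2 fold change of each tested member in no-lactate against fresh cells, MHC-IIlo on the vertical and MHC-IIhi on the horizontal axis, with Cox4i2 and Cox6b2 left out and Ndufa4l2 marked by a triangle below the axis; filled points passed the test of the difference between subsets. Mitochondrial genes lie below the line of equal change, and Sdha lies above 0 in MHC-IIlo and below 0 in MHC-IIhi.

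Of the genes lower in fresh MHC-IIlo cells, some passed the test of a different change in culture between the subsets and others did not. The fresh difference by which these genes were picked is itself part of that test, so these results are not independent. Ndufa6 had 37.4, 45.5, 32, 32.8 and 39.3 CPM in no-lactate MHC-IIlo and 47.7, 35.9, 31.6, 35.96 and 39.98 CPM in no-lactate MHC-IIhi, overlapping ranges that lie below all fresh libraries given above. The subset difference did not pass without lactate (-0.02 ± 0.13, adjusted p = 0.925) or with it (0.11 ± 0.13, adjusted p = 0.598), and its change in culture differed between the subsets (0.66 ± 0.16, adjusted p = 0.0061). Ndufv1 had 47.6, 47.4, 41.5, 41.99 and 39.98 CPM in no-lactate MHC-IIlo and 57.1, 41.4, 44.7, 47.99 and 47.2 CPM in no-lactate MHC-IIhi, against 63.8, 67.9, 65.4, 61.6 and 60.9 CPM in fresh MHC-IIlo and 84.3, 87.7, 91.3, 103 and 86.7 CPM in fresh MHC-IIhi. It too was lower in fresh MHC-IIlo and overlapped between the subsets after culture. Ndufs8 was lower in fresh MHC-IIlo (-0.32 ± 0.09), did not pass without lactate (0.16 ± 0.14, adjusted p = 0.494) and was higher in MHC-IIlo with it (0.42 ± 0.14, adjusted p = 0.0409), a call lost in 7 of 10 fits with 1 library left out. Cox7a2l fell in culture with -0.82 ± 0.13 in MHC-IIlo and -0.81 ± 0.13 in MHC-IIhi, a difference between subsets of -0.01 ± 0.18 (adjusted p = 0.979). Without lactate it measured -0.39 ± 0.16 in MHC-IIlo against MHC-IIhi, which passed in the fit of all 30 libraries (adjusted p = 0.0424) and not on the 20 cultured ones (0.0965). Uqcrc1 (0.31 ± 0.11, adjusted p = 0.056) and Uqcrfs1 (0.25 ± 0.11, adjusted p = 0.12) did not pass the test of the difference between subsets.

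Complex II, the succinate dehydrogenase shared with the TCA cycle, is the complex with no mitochondrial gene, and its 4 genes did not move together. Sdha (ENSMUSG00000021577, chromosome 13, 74322254 to 74350280), the flavoprotein that oxidises succinate, had 238, 279, 231, 237 and 266 CPM in no-lactate MHC-IIlo and 185, 174, 149, 188 and 162 CPM in no-lactate MHC-IIhi (log2 fold change 0.55 ± 0.12, adjusted p = 0.00168), with no overlap. With lactate it had 245, 225, 241, 164 and 206 CPM in MHC-IIlo and 199, 173, 167, 148 and 136 CPM in MHC-IIhi (0.39 ± 0.12, adjusted p = 0.0212), which overlapped, and the call was lost in 4 of 10 fits with 1 library left out, though not without lactate MHC-IIlo 5 (0.48 ± 0.11, adjusted p = 0.00211). In fresh cells it had 192, 185, 184, 189 and 184 CPM in MHC-IIlo and 188, 194, 196, 221 and 201 CPM in MHC-IIhi (-0.10 ± 0.06, adjusted p = 0.244). Sdha was thus higher in no-lactate than in fresh MHC-IIlo (0.43 ± 0.08, adjusted p = 5.56e-05) and lower in no-lactate than in fresh MHC-IIhi (-0.21 ± 0.08, adjusted p = 0.0187), and that difference passed (0.64 ± 0.11, adjusted p = 0.000352). The fall in MHC-IIhi did not pass in a fit of all 30 libraries (adjusted p = 0.0624), with no filter on low counts (0.0588), or without fresh MHC-IIhi 4 (0.0653) or no-lactate MHC-IIhi 5 (0.0574).

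Sdhb, the iron-sulphur subunit, had 112, 109.7, 97.8, 100.1 and 102 CPM in no-lactate MHC-IIlo and 106, 94.9, 96.9, 126 and 79.96 CPM in no-lactate MHC-IIhi (0.06 ± 0.13, adjusted p = 0.8), and its change in culture did not pass in MHC-IIlo (0.19 ± 0.08, adjusted p = 0.0587) or MHC-IIhi (-0.10 ± 0.08, adjusted p = 0.329). The membrane anchors fell in culture in both subsets, Sdhc with -0.45 ± 0.08 in MHC-IIlo and -0.61 ± 0.08 in MHC-IIhi, and Sdhd with -0.32 ± 0.08 in MHC-IIlo and -0.23 ± 0.08 in MHC-IIhi. The Sdhd call in MHC-IIhi was lost in 1 of 9 other settings and in 1 of 10 fits with 1 library left out. Sdhc had 112, 112, 93.5, 103 and 97.8 CPM in no-lactate MHC-IIlo, against 145, 124, 137, 147 and 156 CPM in fresh MHC-IIlo, without overlap. Neither anchor differed between cultured subsets past the threshold (Sdhc 0.19 ± 0.11, adjusted p = 0.25, Sdhd -0.02 ± 0.12, adjusted p = 0.923).

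Ndufa4, counted with complex I by its name but known as a subunit of complex IV, was higher in MHC-IIlo in all 3 conditions. It had 48.4, 45.1, 47.1, 41.5 and 52.01 CPM in lactate MHC-IIlo and 28.96, 30.96, 35.9, 29.2 and 31.9 CPM in lactate MHC-IIhi (0.57 ± 0.08, adjusted p = 2.47e-05). Without lactate it had 43.02, 42.96, 42.1, 41.6 and 40.4 CPM in MHC-IIlo and 32.2, 27.5, 29.5, 26.6 and 29.9 CPM in MHC-IIhi (0.53 ± 0.08, adjusted p = 4.95e-05). In fresh cells it had 54.7, 50.5, 56.9, 53.5 and 62.2 CPM in MHC-IIlo and 42.3, 38.01, 44.97, 44.4 and 46.8 CPM in MHC-IIhi (0.36 ± 0.08, adjusted p = 0.00311). No pair of groups overlapped, and the call was kept in each alternative tried, for the lactate groups also without lactate MHC-IIlo 5 (0.62 ± 0.08, adjusted p = 8.42e-06). Its relative AA467197, listed by RefSeq with the older name Nmes1 and known to take the place of NDUFA4 in complex IV in inflamed cells, ran the other way. AA467197 had 26.5, 46.8, 46.4, 30.96 and 31.4 CPM in no-lactate MHC-IIlo and 188, 259, 164, 258 and 163 CPM in no-lactate MHC-IIhi (-2.49 ± 0.27, adjusted p = 8.62e-07), and 25.3, 24.4, 22.8, 21.2 and 17.2 CPM in fresh MHC-IIlo and 86, 71.9, 92.7, 120 and 82.5 CPM in fresh MHC-IIhi (-2.03 ± 0.14, adjusted p = 4.77e-07). With lactate AA467197 was also lower in MHC-IIlo (-1.77 ± 0.26, adjusted p = 4.3e-05), as it was without lactate MHC-IIlo 5 (-1.73 ± 0.29, adjusted p = 0.000145). It was higher in no-lactate than in fresh cells in both subsets (0.72 ± 0.18 in MHC-IIlo, 1.19 ± 0.18 in MHC-IIhi), while Ndufa4 was lower (-0.40 ± 0.08 and -0.56 ± 0.08).

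The other relative, Ndufa4l2, is known as a gene raised by hypoxia, and was at the edge of detection. It had 36, 17, 36, 91 and 36 reads in the fresh MHC-IIlo libraries and 14, 11, 8, 16 and 28 in the fresh MHC-IIhi libraries (1.47 ± 0.47, adjusted p = 0.0304), a call lost in 6 of 10 fits with 1 library left out and in all 3 limma fits on FPKM. Without lactate it had 1, 1, 3, 3 and 1 reads in MHC-IIlo and 12, 14, 2, 4 and 27 in MHC-IIhi (-2.66 ± 0.65, adjusted p = 0.00527), and with lactate 1, 5, 2, 1 and 1 in MHC-IIlo and 9, 18, 16, 9 and 29 in MHC-IIhi (-3.23 ± 0.63, adjusted p = 0.000774, and -3.07 ± 0.68, adjusted p = 0.00225 without lactate MHC-IIlo 5). So it was higher in fresh MHC-IIlo and lower in cultured MHC-IIlo, and its change in culture differed between the subsets (-4.13 ± 0.86, adjusted p = 0.00235). Of the per-length levels of the 3 genes together, Ndufa4 made up 45.3 ± 11.7% in lactate MHC-IIlo and 13.2 ± 1.64% in lactate MHC-IIhi, 50.7 ± 6.31% in no-lactate MHC-IIlo and 11.4 ± 2.79% in no-lactate MHC-IIhi, and 65.95 ± 4.45% in fresh MHC-IIlo and 29.5 ± 3.20% in fresh MHC-IIhi (mean ± SD, n = 5). Ndufa4l2 reached 8.08% in 1 fresh MHC-IIlo library and was lower in all others, and AA467197 made up the rest.

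**Figure D5:**
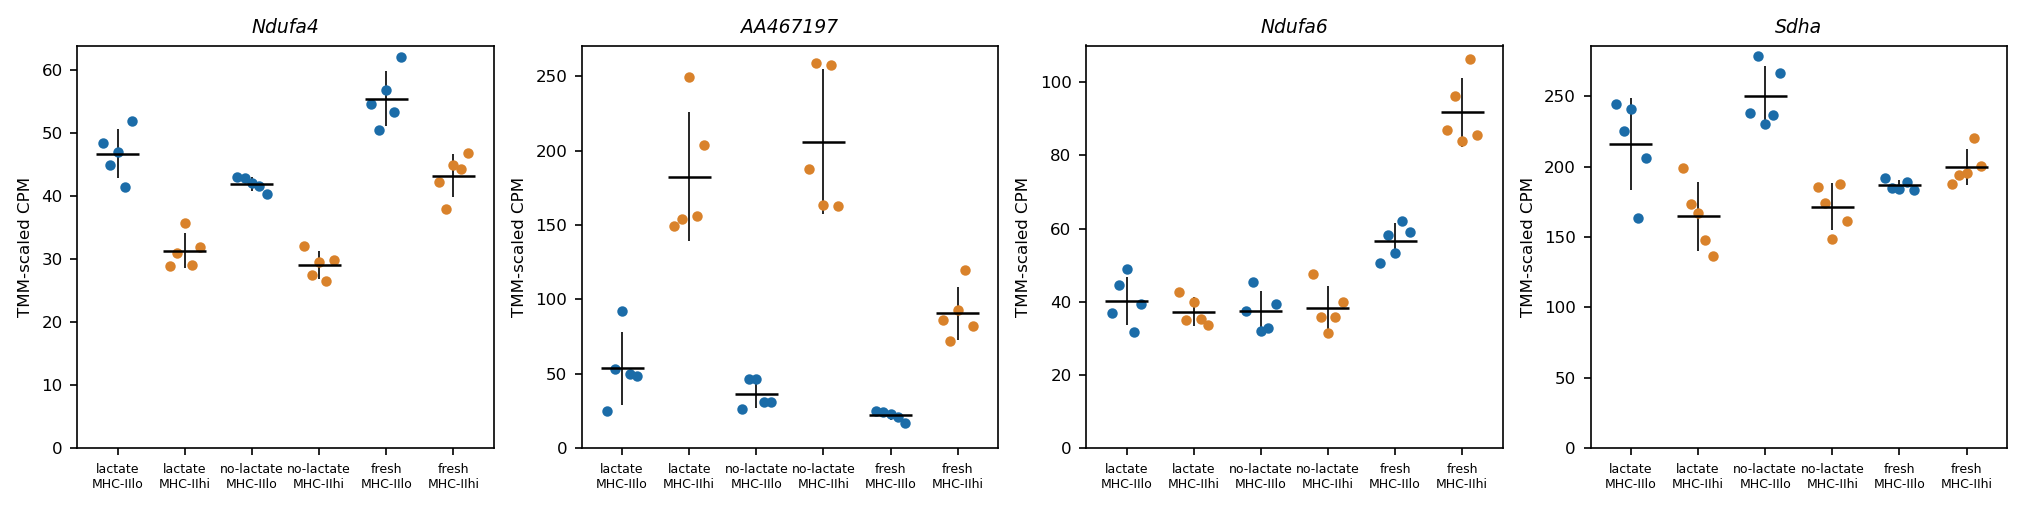
CPM of Ndufa4, AA467197, Ndufa6 and Sdha in each library of the 6 groups, bars the mean and vertical lines the SD of 5 libraries. Ndufa4 is higher and AA467197 lower in MHC-IIlo in each condition, Ndufa6 is lower in fresh MHC-IIlo than in fresh MHC-IIhi and overlaps in the cultured groups, and Sdha has its highest mean in no-lactate MHC-IIlo.

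Tissue forms of subunits were rare next to their common forms. Per length, the share of Cox4i1 in Cox4i1 plus Cox4i2 was lowest in fresh MHC-IIhi, at 99.6 ± 0.395%, and that of Cox6a1 in Cox6a1 plus Cox6a2 lowest in no-lactate MHC-IIlo, at 99.03 ± 0.325% (mean ± SD, n = 5). Cox4i2, the lung and hypoxia form of subunit 4, had 0 reads in the 10 no-lactate libraries, against 52 reads in fresh MHC-IIlo and 62 in fresh MHC-IIhi, which is at least 23.02-fold lower in MHC-IIlo and at least 26.6-fold lower in MHC-IIhi at a floor of 3 reads over the group. Cox7a1, the heart form, took 2.93 ± 0.425% of Cox7a1 plus Cox7a2 in no-lactate MHC-IIlo and 2.90 ± 1.23% in no-lactate MHC-IIhi, against 6.99 ± 1.12% in fresh MHC-IIlo and 5.44 ± 2.13% in fresh MHC-IIhi, and fell in culture (-1.22 ± 0.31, adjusted p = 0.00203 in MHC-IIlo and -0.89 ± 0.31, adjusted p = 0.0175 in MHC-IIhi). The call in MHC-IIhi was lost in 2 of 10 fits with 1 library left out. The testis gene Cox7b2 had 2 reads and the muscle and testis genes Cox8b and Cox8c had 0. Of the 3 genes for the identical c-ring protein of the ATP synthase, Atp5g3 held 85.2 ± 1.26% of the per-length level in no-lactate MHC-IIlo, against 80.9 ± 0.850% in fresh MHC-IIlo.

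The other genes of the pathway were read from lists chosen with earlier results of these data known. The 11 remaining subunits and carriers, AA467197 among them, had 0 higher and 2 lower in MHC-IIlo without lactate, 0 and 2 with it (1 and 2 without lactate MHC-IIlo 5), and 0 and 3 in fresh cells. Beside these and the counts that follow, the shares of all genes higher and lower in MHC-IIlo were 9.20% and 11.6% without lactate, 9.13% and 13.3% with it, and 14% and 15.2% in fresh cells. Without lactate MHC-IIlo 5 the shares with lactate were 11.8% and 13.6%. The 47 tested assembly factors of the complexes had 7 higher and 2 lower in no-lactate MHC-IIlo against MHC-IIhi, with Tmem126b, a complex I assembly factor, at 0.70 ± 0.09 and Cox17, the copper chaperone of complex IV, at -0.61 ± 0.15. With lactate 11 were higher and 1 lower (14 and 1 without lactate MHC-IIlo 5), and in fresh cells 1 was higher and 5 lower, where Cox17 stood at -0.85 ± 0.16. The 76 tested mitochondrial ribosomal proteins had 6 higher and 2 lower without lactate, 22 higher and 0 lower with it (26 and 0 without lactate MHC-IIlo 5), and 1 higher and 11 lower in fresh cells. Their counts without lactate and in fresh cells were thus near or below the shares of all genes, and the count higher with lactate was above it. The 23 genes that copy, read and process mitochondrial DNA had 2 higher and 0 lower without lactate in MHC-IIlo, Polrmt, the mitochondrial RNA polymerase (0.56 ± 0.11), and Fastkd2 (0.44 ± 0.11), an RNA-binding protein of the mitochondrion. In culture against fresh cells 7 of these 23 were higher and 4 lower in MHC-IIlo, and 7 were higher and 8 lower in MHC-IIhi, near or below the shares of all genes given for these comparisons above.

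In no-lactate MHC-IIlo against MHC-IIhi the median log2 fold change was 0.09 over the assembly factors, 0.13 over the ribosomal proteins, 0.07 over the upkeep genes and -1.07 over the hypoxia targets below, against -0.01 over all genes. Of 10 tested nuclear regulators, Pprc1, a PGC-1 family coactivator (0.62 ± 0.10), was among 2 higher, and Hif1a, the oxygen-responsive factor (-0.82 ± 0.19), was the 1 lower in no-lactate MHC-IIlo against MHC-IIhi. The 8 hypoxia targets were Pdk1, Bnip3, Bnip3l, Higd1a, Egln3, Ldha, Slc2a1 and Lonp1, a list not limited to mitochondrial proteins. Of these, 6 were lower in no-lactate MHC-IIlo than in MHC-IIhi. Bnip3, a mitophagy receptor, stood at -2.15 ± 0.29 and Pdk1, the kinase that switches off pyruvate dehydrogenase, at -1.21 ± 0.18. With lactate 6 were lower (4 without lactate MHC-IIlo 5), and in fresh cells 2 were higher, Bnip3 among them (0.51 ± 0.14). The fresh groups overlapped for Bnip3, and the fresh median over the 8 targets was 0.045. Ndufa4l2, given above, was also called higher in fresh MHC-IIlo, a call lost in 6 of 10 fits with 1 library left out. It was lower in cultured MHC-IIlo than in cultured MHC-IIhi. Nos2, which makes nitric oxide, a brake on complex IV, stood at -2.91 ± 0.36 in no-lactate MHC-IIlo against MHC-IIhi, and was higher in no-lactate than in fresh cells (2.62 ± 0.25 in MHC-IIlo, 5.66 ± 0.28 in MHC-IIhi). It was higher in lactate than in no-lactate MHC-IIlo (1.42 ± 0.34, adjusted p = 0.0401), a call lost without lactate MHC-IIlo 5 (adjusted p = 0.0721). None of the subunits, assembly factors, ribosomal proteins, upkeep genes, regulators or hypoxia targets of these lists passed for lactate in either subset. Their part in the levels of the members was not tested.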

How the data were processed

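Per the submitters' processing notes, the authors used Trimmomatic, STAR and featureCounts with GRCm38 to make the deposited counts (versions not given in the sources used here). Neither the strand setting nor the handling of reads that match several places is given in the sources used here. The deposited FPKM table of 13778 genes was quantile normalised: FPKM times gene length has the same distribution in each library, as tested on the file. The GC percent column that the authors deposited beside each gene was not used in a test.

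Counts were fitted with edgeR 4.0.16 (R 4.3.3; TMM factors, filterByExpr, glmQLFit and glmQLFTest). P-values were adjusted over all genes tested (Benjamini-Hochberg) and called under 0.05. Fresh subsets were fitted on 10 libraries, cultured groups on 20 and culture against fresh on the 20 without lactate. Errors after ± are standard errors for log2 fold changes and SDs otherwise. Levels are CPM with TMM factors over all 30 libraries, or TPM, computed from counts and gene length, where genes are compared. The fit was tested on simulated data. The numbers in the column names of cultured libraries do not match the replicate numbers of the labels, so those columns were assigned to groups only, and libraries are called by the number in the column name.

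The members and lists were chosen with earlier results of these data known. Named are all mitochondrial members, the Sdh genes, paralogue pairs, per comparison the 6 largest called rises and falls among nuclear members whose mean log2 CPM was 3 or more, and the 2 called genes of each other list with the smallest p. Not every call of these genes is printed. Atp5b, Cox8a and Cox6b1, Uqcrfs1 and Sdhb in fresh cells, and Cox5a in the interaction were named after their values were seen. The values of 1 member are not reported here, though it is in the counts of members. Alternatives were other scalings and filters, a replicate block, 1 fit of all libraries, DESeq2 1.42.0, limma 3.58.1 on log2(FPKM + 1) and log2(FPKM + 0.1), and leaving out each library. Leaving lactate MHC-IIlo 5 out of the other lists was added after seeing the data.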

Additional observations from a re-analysis of the deposited data

Results flagged for a closer look

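In 38 quantities over the 6 groups, 228 group values in all, 8 held a library apart from the other 4 of its group (3.51%, where chance alone gives about 1 in 20). No-lactate MHC-IIhi 5 had a mitochondrial share of 0.5117%, against 0.381 to 0.412% in the others, and 410.3 CPM of mt-Nd2, against 273 to 301 CPM. Fresh MHC-IIhi 5 had 791.9 CPM of mt-Nd2, against 480.4 to 568 CPM. Lactate MHC-IIlo 5 had 1.711 CPM of mt-Nd6 (others 0.981 to 1.15) and 21.82 CPM of Uqcr11, a small subunit of complex III (others 30.1 to 32.9). Uqcrfs1 was at 74.45 CPM in lactate MHC-IIlo 3 (others 62.3 to 65.1) and at 70.36 CPM in no-lactate MHC-IIlo 3 (others 58.8 to 61.9). Cox7a1 was at 1.689 CPM in fresh MHC-IIlo 3 (others 2.49 to 2.81).

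For 12 members the change in culture differed between the subsets by the interaction test in edgeR, and 11 are given here. The difference, MHC-IIlo minus MHC-IIhi on the log2 scale, was -4.13 for Ndufa4l2, -1.30 for mt-Nd1, -0.85 for mt-Cytb and -0.72 for mt-Nd2. It was 0.66 for Ndufa6, 0.64 for Sdha, 0.61 for Atp5sl, 0.50 for Ndufa12, 0.47 for Ndufs8, 0.38 for Ndufv1 and 0.33 for Cox5a.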

How the results depend on the processing

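Of 865 alternatives to the 96 named calls, with no library left out, 803 kept the call in the same direction, 62 lost it and 0 reversed. Of 1060 fits with 1 library left out, 960 kept it, 100 lost it and 0 reversed. Except without lactate MHC-IIlo 5, the share of all genes called was not counted for the alternatives, so their member counts stand without that background. Counts of called members moved by over 1.5 times in these cases, whose cause was not tested. In 1 fit of all 30 libraries, the fresh subset difference had 11 members (17 in the edgeR fit above) and the culture interaction 6 (12). With limma on FPKM, the no-lactate subset difference had 5 under each pseudocount and with no filter (9), the lactate subset difference 26 with no filter (16), and the lactate effect in MHC-IIlo 2 in each of the 3 settings (0). With DESeq2 the lactate effect in MHC-IIlo had 2, and with the replicate block 3.

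With 1 library left out, counts ran from 11 (without fresh MHC-IIhi 4) to 18 in the fresh subset difference, from 7 to 9 without lactate, from 11 (without lactate MHC-IIhi 6) to 25 (without lactate MHC-IIlo 5) with lactate, from 51 to 56 for culture in MHC-IIlo, from 54 to 66 for culture in MHC-IIhi and from 7 to 12 in the culture interaction. The count of 7 came without fresh MHC-IIhi 3, fresh MHC-IIlo 2, fresh MHC-IIlo 4, no-lactate MHC-IIhi 4 or no-lactate MHC-IIlo 1. The lactate effects and their interaction stayed at 0.

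Replicate numbers were not taken to pair the libraries. The labels do not say that equal numbers share mice, and the cultured numbers do not match the labels. In fresh cells the numbers do match, and same-numbered libraries deviated together with r of 0.07 to 0.497, each best with its own number in 4 of 5. A pairing of fresh libraries is thus possible, and the fit on group means leaves it out. With the replicate block, the counts were 25 for the fresh, 10 for the no-lactate and 22 for the lactate subset difference, 3 for lactate in MHC-IIlo (mt-Nd1 among them, 0.49, adjusted p = 0.0474, and Cox6a2, -1.49, adjusted p = 0.0471), 0 in MHC-IIhi, 58 for culture in each subset, 10 for the culture interaction and 0 for the lactate interaction. No share of all genes was counted with the block. Depth limited Ndufa4l2, Cox4i2, Cox6b2 and mt-Nd6, and 9 members could not be tested at all.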

Other observations

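The 2 mitochondrial rRNAs, which are no members, were counted at low levels, and removal of rRNA is not given in the sources used here. Lactate MHC-IIlo libraries gave them 0.0599 to 0.228% of reads (median 0.0904%), and lactate MHC-IIhi libraries 0.0811 to 0.197% (median 0.0974%). No-lactate MHC-IIlo libraries gave 0.0428 to 0.0558% (median 0.0519%), and no-lactate MHC-IIhi libraries 0.0496 to 0.1225% (median 0.0869%). Fresh MHC-IIlo libraries gave 0.0344 to 0.0413% (median 0.0388%), and fresh MHC-IIhi libraries 0.0375 to 0.0590% (median 0.0461%). The rRNA share was thus higher in cultured than in fresh cells by its medians, while the share of the mitochondrial messages was lower.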
